A study of Arabidopsis with 8 samples.

Results

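The Casparian strip genes described here are 9 named genes of Arabidopsis thaliana that build or place the Casparian strip: CASP1, CASP2, CASP4, CASP5, ESB1, PER64, RBOHF, SGN3 and MYB36. They were chosen by name and gene identifier out of 25401 genes with a value in at least 1 library. No cutoff on their values was used, but earlier results of these data were known. All 9 were listed, and all 9 passed the filter on low values that left 19863 genes for testing. Their RNA levels are given as FPKM, in which fragment numbers are divided by transcript length and by library size, which puts genes of different length on a per-length scale. The libraries came from 5-day-old seedlings and formed 4 groups of 2: OE-SAUR41 roots, Col-0 roots, OE-SAUR41 shoot parts and Col-0 shoot parts. Col-0 is the wild type accession, and OE-SAUR41 is a line that overexpresses SAUR41, a small gene of the auxin-induced SAUR family. The promoter of the transgene, the number of independent lines, the growth conditions and the place where seedlings were divided into root and shoot part are not stated in the sources used. The labels do not state whether both libraries of a group were grown separately. The p-values therefore reflect the spread among these samples only, and that spread may be technical.

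The Casparian strip is a ring of lignin in the walls of endodermal cells, the innermost cortical layer of the root, where it blocks the passage of solutes between cells. CASP proteins gather in the plasma membrane under the future strip and form a scaffold to which the lignin-building enzymes are brought, among them the peroxidase PER64, the NADPH oxidase RBOHF and the dirigent protein ESB1. The transcription factor MYB36 switches on many of these genes, and the receptor kinase SGN3 senses small sulfated peptides from the stele until the strip is closed.

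SAUR41 stood at 7996 and 4670 FPKM in OE-SAUR41 roots, against 4.64 and 7.46 FPKM in Col-0 roots, and at 10675 and 10248 FPKM in OE-SAUR41 shoots, against 4.93 and 8.29 FPKM in Col-0 shoots. The libraries listed 19573 to 23028 genes each, with summed values of 605751 to 774506 FPKM, and read depth is unknown because the values are not counts. The 2 Col-0 shoot libraries stood apart from each other in a way that followed gene span, so levels of genes of different length are less comparable there. Taken over all genes tested, the median change in OE-SAUR41 against Col-0 was -0.03 in roots and -0.32 in shoots on the log2 scale.

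The Casparian strip genes stood higher in roots than in shoots in both genotypes. Summed over the 9 genes, the root level was 409 and 419 FPKM in OE-SAUR41 and 415 and 375 FPKM in Col-0. The summed shoot level was 15.4 and 18.4 FPKM in OE-SAUR41 and 19.7 and 18.3 FPKM in Col-0. All 9 had both root libraries above both shoot libraries of the same genotype. How many of all genes did so was not counted. The log2 fold change of root over shoot was above 0 for 80.6% of all genes tested in OE-SAUR41 and 77.9% in Col-0, so this direction is common. In these bulk samples, fewer cells of a type and less RNA per cell cannot be told apart.

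**Figure D1:**
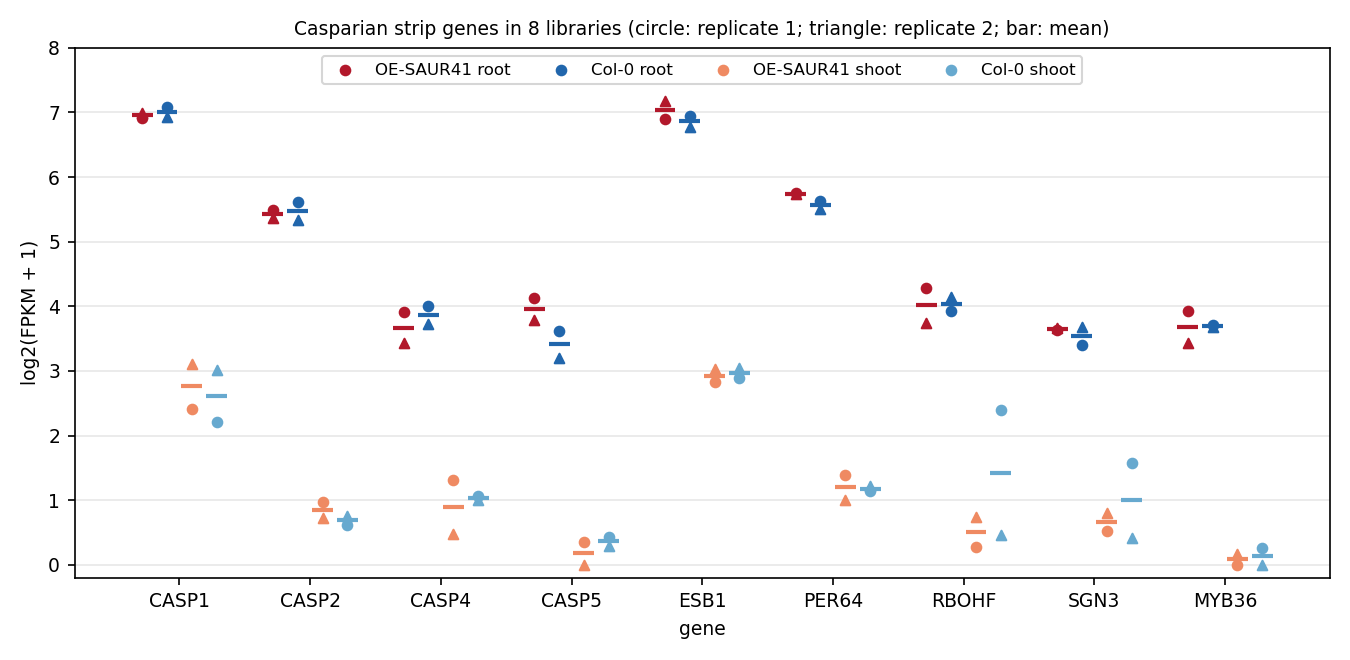
Levels of the 9 Casparian strip genes in the 8 libraries, as log2(FPKM + 1) on the vertical axis, with 1 point per library and a bar at the mean of each group of 2. A gene that a library does not list is drawn at 0. Root points lie above shoot points for every gene, and the widest gaps within a group are those of RBOHF and SGN3 in Col-0 shoots.

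CASP1 (AT2G36100, chromosome 2, 15158561 to 15160750, TAIR10) was the most abundant of the 4 scaffold genes. It had 119 and 127 FPKM in OE-SAUR41 roots and 134 and 121 FPKM in Col-0 roots, against 4.35 and 7.64 FPKM in OE-SAUR41 shoots and 3.65 and 7.10 FPKM in Col-0 shoots. The genotypes overlapped in both tissues. CASP1 shares its locus in the files with AT2G36090, which had 9.95 to 19.5 FPKM in roots and 1.33 to 1.91 FPKM in shoots, so how reads were divided between them is uncertain.

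CASP2 (AT3G11550, chromosome 3, 3638195 to 3639197) had 44.2 and 40.4 FPKM in OE-SAUR41 roots and 48.2 and 39.6 FPKM in Col-0 roots, against 0.954 and 0.647 FPKM in OE-SAUR41 shoots and 0.540 and 0.692 FPKM in Col-0 shoots. On the log2(FPKM + 1) scale it had the largest root to shoot fold change of the 9 genes in both genotypes, and its genotypes overlapped in roots and in shoots.

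CASP4 (AT5G06200, chromosome 5, 1877333 to 1878116) had 14.0 and 9.75 FPKM in OE-SAUR41 roots and 15.0 and 12.2 FPKM in Col-0 roots, against 1.48 and 0.400 FPKM in OE-SAUR41 shoots and 1.09 and 1.01 FPKM in Col-0 shoots. CASP5 (AT5G15290, chromosome 5, 4967011 to 4968035) had 16.6 and 12.8 FPKM in OE-SAUR41 roots and 11.3 and 8.19 FPKM in Col-0 roots. In shoots CASP5 had 0.278 FPKM in OE-SAUR41 replicate 1, was not listed in replicate 2, and had 0.352 and 0.227 FPKM in Col-0. CASP5 was the scaffold gene whose genotypes did not overlap in roots, with both OE-SAUR41 libraries above both Col-0 libraries.

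Among the 4 scaffold genes, CASP1 contributed the most in all 8 libraries. It made up 61.5% and 66.8% of their summed FPKM in OE-SAUR41 roots and 64.2% and 66.8% in Col-0 roots. CASP2 made up 22.8% and 21.3% in OE-SAUR41 roots and 23.1% and 21.9% in Col-0 roots. CASP5 made up 8.55% and 6.76% in OE-SAUR41 roots and 5.43% and 4.53% in Col-0 roots, again with no overlap between the genotypes. In shoots, where the sum was 7.05 and 8.69 FPKM in OE-SAUR41 and 5.63 and 9.03 FPKM in Col-0, the CASP1 share ranged from 61.6% to 88.0%, and its lower value belonged to replicate 1 in both genotypes.

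Of the genes that act on the lignin, ESB1 was the most abundant, at levels that overlapped those of CASP1. ESB1 (AT2G28670, named DIR10 in the files, chromosome 2, 12300203 to 12302358), a dirigent protein needed for an ordered strip, had 118 and 143 FPKM in OE-SAUR41 roots and 122 and 109 FPKM in Col-0 roots, against 6.09 and 7.14 FPKM in OE-SAUR41 shoots and 6.45 and 7.26 FPKM in Col-0 shoots. The genotypes overlapped in both tissues, and the gene listed at the same locus, AT2G28671, had at most 0.256 FPKM in any library.

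PER64 (AT5G42180, chromosome 5, 16852630 to 16855645), a peroxidase that couples monolignols at the strip, had 52.9 and 52.2 FPKM in OE-SAUR41 roots and 48.6 and 44.7 FPKM in Col-0 roots. In shoots it had 1.63 and 1.01 FPKM in OE-SAUR41 and 1.20 and 1.33 FPKM in Col-0. Both OE-SAUR41 root libraries lay above both Col-0 root libraries, by a ratio of means of 1.13, and the shoot libraries overlapped. PER64 shares its locus in the files with SKP1B, which had 54.1 to 68.0 FPKM in roots and 51.7 to 58.3 FPKM in shoots. How reads were divided between PER64 and SKP1B is uncertain, most of all in shoots, where PER64 is low.

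RBOHF (AT1G64060, chromosome 1, 23769774 to 23776931), an NADPH oxidase that supplies the reactive oxygen for lignin coupling, had 18.4 and 12.4 FPKM in OE-SAUR41 roots and 14.2 and 16.6 FPKM in Col-0 roots. In shoots it had 0.208 and 0.674 FPKM in OE-SAUR41 and 4.27 and 0.375 FPKM in Col-0. The value of 4.27 FPKM, in Col-0 shoot replicate 1, stands apart from the other 3 shoot libraries.

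SGN3 (AT4G20140, named GSO1 in the files, chromosome 4, 10884197 to 10889597), the receptor kinase, had 11.4 and 11.7 FPKM in OE-SAUR41 roots and 9.54 and 11.8 FPKM in Col-0 roots. In shoots it had 0.436 and 0.738 FPKM in OE-SAUR41 and 1.99 and 0.340 FPKM in Col-0, and again Col-0 shoot replicate 1 held the highest value. The gene at the same locus in the files, AT4G20150, had 90.9 to 247 FPKM in the 8 libraries, so a small error in dividing reads could alter the value of SGN3.

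MYB36 (AT5G57620, chromosome 5, 23334817 to 23336566), the transcription factor of the group, had 14.2 and 9.75 FPKM in OE-SAUR41 roots and 12.1 and 11.8 FPKM in Col-0 roots. In shoots it was listed in 1 library of each genotype, at 0.126 FPKM in OE-SAUR41 replicate 2 and at 0.199 FPKM in Col-0 replicate 1. MYB36 had the lowest mean level of the 9 genes in shoots of both genotypes.

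Ordered by mean level, ESB1 and CASP1 led in all 4 groups, with ranges that overlapped each other. In OE-SAUR41 roots the order went on with PER64 and CASP2, whose ranges were apart from each other, and the remaining 5 genes lay between 11.5 and 15.4 FPKM with neighbours that overlapped. In Col-0 roots PER64 and CASP2 overlapped, and the remaining 5 genes lay between 9.76 and 15.4 FPKM. Among those 5 in Col-0 roots, CASP4 and MYB36 were the neighbours with ranges apart. In terms of all genes tested, mean levels in Col-0 roots ran from the 47.7th percentile for CASP5 to the 95.4th for CASP1. In Col-0 shoots they ran from the 4.64th percentile for MYB36 to the 54.4th for ESB1.

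The comparison of tissues asked how far the group is set to the root in each genotype. In the limma fit over all 8 libraries on log2(FPKM + 1), all 9 genes were called higher in roots at an adjusted p under 0.05 in OE-SAUR41 and in Col-0. Over all genes tested, 66.0% were called higher in roots in OE-SAUR41 and 52.7% in Col-0, so a call by itself is common here. On the shoot libraries alone, 4 of the 9 genes passed the filter, so the others were tested through their root values. For those others the filter favoured the root in advance, and the direction of their calls is no independent result. The same holds for genes of the lists below that are as low in shoots. The median log2 fold change of the 9 genes was 3.78 in OE-SAUR41 and 3.57 in Col-0, beside medians of 1.22 and 0.91 over all genes tested in OE-SAUR41 and in Col-0. The single genes lay between the 91.2nd and 98.7th percentile of all fold changes in OE-SAUR41 and between the 92.2nd and 98.8th in Col-0. These sizes depend on the scaling. With quantile normalization the median of the 9 genes was 2.87 in both genotypes, beside 0.21 in OE-SAUR41 and 0.20 in Col-0 over all genes tested, and the smallest change was 1.53 for CASP4 in OE-SAUR41 and 1.68 for SGN3 in Col-0.

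**Figure D2:**
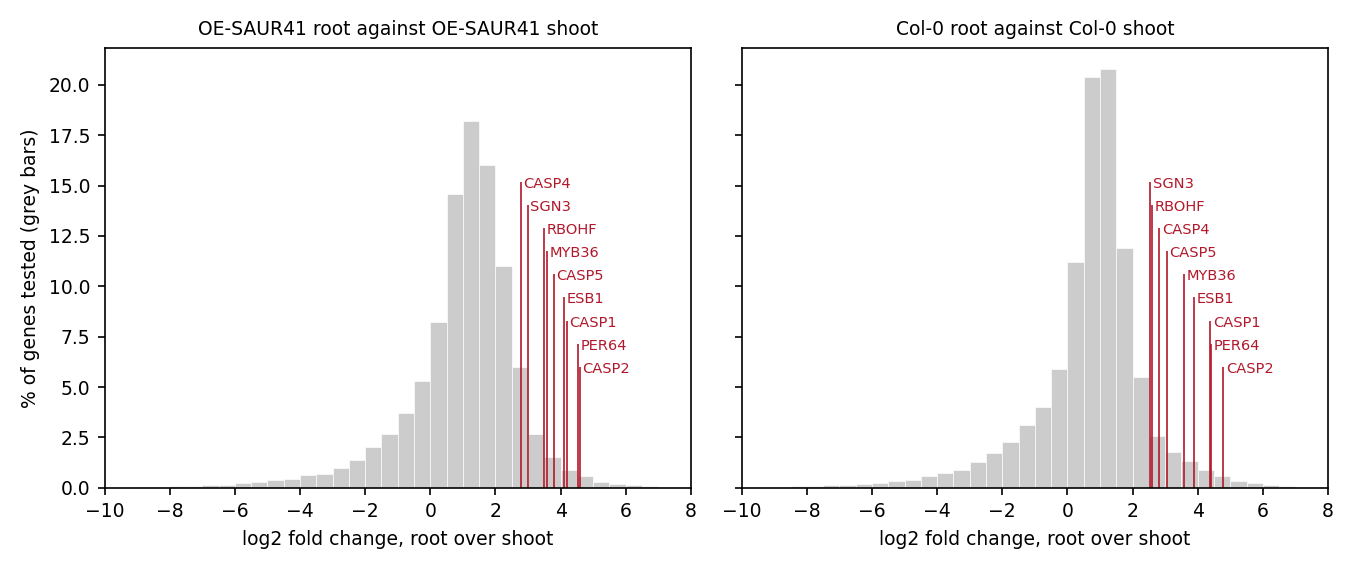
Log2 fold change of root over shoot on the log2(FPKM + 1) scale in OE-SAUR41 (left) and Col-0 (right). Grey bars give the percentage of the 19863 genes tested in each step of 0.5, and red lines mark the Casparian strip genes, with line heights that serve only to separate the names. The red lines start at 2.77 in OE-SAUR41 and 2.54 in Col-0, to the right of most of the grey bars.

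On the log2(FPKM + 1) scale CASP2 led in both genotypes, with a log2 fold change of 4.59 in OE-SAUR41 and 4.79 in Col-0 (SE 0.25 each, limma adjusted p = 6.85e-06 and 5.18e-06). In plain FPKM its mean was 52.8-fold higher in roots of OE-SAUR41 and 71.3-fold higher in roots of Col-0. PER64 followed with 4.54 in OE-SAUR41 and 4.39 in Col-0 (SE 0.24 each, limma adjusted p = 5.54e-06 and 5.92e-06), a ratio of means of 39.7 in OE-SAUR41 and 36.9 in Col-0. The abundant pair had smaller ratios than these. CASP1 was 20.5-fold higher in roots of OE-SAUR41 and 23.7-fold higher in roots of Col-0. ESB1 was 19.7-fold higher in OE-SAUR41 and 16.8-fold higher in Col-0.

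CASP4 had the smallest ratio of the scaffold genes, 12.7 in OE-SAUR41 and 13.0 in Col-0, with log2 fold changes of 2.77 and 2.83 (SE 0.36 each, limma adjusted p = 4.22e-04 and 4.05e-04). For CASP5 and MYB36, with a shoot library that did not list them, no ratio of means is given for that group. The lowest root library of CASP5 was 46.1 times the highest shoot library in OE-SAUR41 and 23.3 times in Col-0. For MYB36 the same comparison gave 77.4 in OE-SAUR41 and 59.4 in Col-0, and for CASP2 it gave 42.3 in OE-SAUR41 and 57.2 in Col-0. Which gene leads depends on the pseudocount. With a pseudocount of 0.1 MYB36 had the largest log2 fold change (6.30 in OE-SAUR41 and 6.13 in Col-0), and with a pseudocount of 5 CASP1 did (3.56 in OE-SAUR41 and 3.69 in Col-0).

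SGN3 and RBOHF had the smallest tissue differences in Col-0 and wider intervals than the other genes. SGN3 had a log2 fold change of 2.99 in OE-SAUR41 (95% interval 2.05 to 3.92) and 2.54 in Col-0 (95% interval 1.60 to 3.47), with limma adjusted p = 5.17e-04 and 0.00128. RBOHF had 3.51 in OE-SAUR41 (95% interval 2.13 to 4.88) and 2.60 in Col-0 (95% interval 1.23 to 3.98), with limma adjusted p = 0.00147 and 0.00693. The Col-0 values of both genes rest on which shoot library is used: leaving out 1 library at a time, they ranged from 1.96 to 3.12 for SGN3 and from 1.64 to 3.57 for RBOHF, and stayed called. The change of all 9 genes stayed above 0 under the 16 alternatives run for OE-SAUR41 and the 17 run for Col-0. Of the 9 genes, CASP1, CASP4, ESB1 and PER64 passed the filter on the shoot libraries alone. For the others the filter rested on root values, so their unchanged direction is no independent result.

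The comparison of genotypes asked whether overexpression of SAUR41 moved the group. In roots, limma called none of the 9 genes, and none had an unadjusted p under 0.05. Over all genes tested, 0.00503% were called, which is SAUR41 alone, and 340 had an unadjusted p under 0.05. The log2 fold changes ran from -0.19 for CASP4 to 0.55 for CASP5, with 4 above 0 and 5 below, a median of -0.0193 and a limma adjusted p of 1.0 for each gene.

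CASP5 had the widest difference in roots, 14.7 ± 2.66 FPKM in OE-SAUR41 and 9.76 ± 2.22 FPKM in Col-0 (SD, n = 2 each), a ratio of 1.51. Its log2 fold change of 0.55 had a 95% interval of -0.14 to 1.24. PER64 averaged 52.5 ± 0.538 FPKM in OE-SAUR41 and 46.6 ± 2.77 FPKM in Col-0 (SD, n = 2 each), with a log2 fold change of 0.17 and a 95% interval of -0.38 to 0.72. Those 2 of the 9 genes had both OE-SAUR41 root libraries above both Col-0 root libraries, which was so for 11.5% of all genes tested. None had both below, which was so for 19.6%.

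For the other 7 genes the root libraries of the genotypes overlapped. The intervals limit what could have gone unseen: for ESB1 the 95% interval of the log2 fold change was -0.27 to 0.61, for CASP2 it was -0.63 to 0.53, and for RBOHF it was -1.39 to 1.35. A log2 change of 1 in either direction lies inside the interval of RBOHF and outside those of ESB1 and CASP2.

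**Figure D3:**
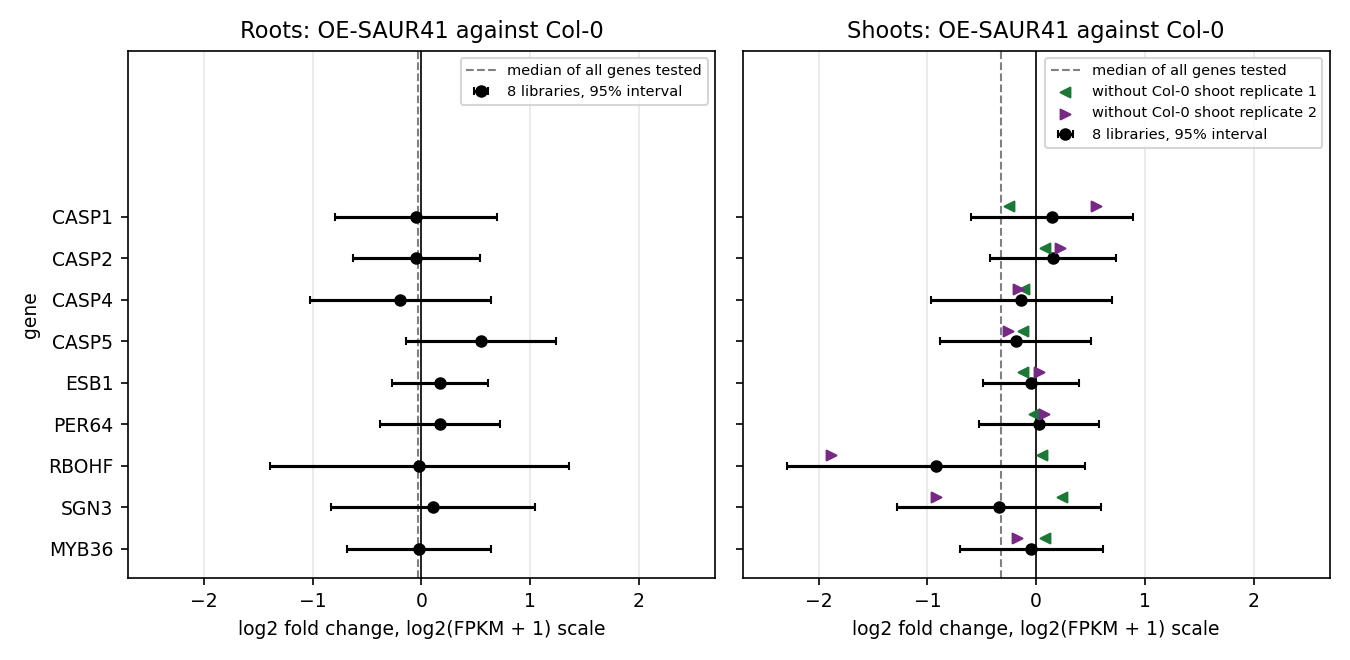
Log2 fold change of OE-SAUR41 against Col-0 on the log2(FPKM + 1) scale for each Casparian strip gene, in roots (left) and shoots (right). Black points and bars give the limma estimate and its 95% interval, dashed lines the median of all genes tested, and triangles in the shoot panel the estimate without either Col-0 shoot library. The intervals of all 9 genes include 0 in both panels, and the triangles of RBOHF and SGN3 lie far apart.

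In shoots, limma again called none of the 9 genes, and none had an unadjusted p under 0.05, while 0.0201% of all genes tested were called and 2790 had an unadjusted p under 0.05. The log2 fold changes ran from -0.92 for RBOHF (SE 0.59, limma adjusted p = 0.449) to 0.15 for CASP2. The median of the 9 genes was -0.0465, with 3 above 0 and 6 below, beside the median of -0.32 over all genes tested. The shoot libraries of the genotypes overlapped for all 9 genes. Both OE-SAUR41 libraries lay above both Col-0 libraries for 7.26% of all genes tested and below both for 32.5%.

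RBOHF and SGN3 were the genes for which a single Col-0 shoot library decided the result. Without Col-0 shoot replicate 2, RBOHF was called lower in OE-SAUR41, with a log2 fold change of -1.89 (limma adjusted p = 0.00188), and so was SGN3, with -0.92 (limma adjusted p = 0.0155). In that fit 49.8% of all genes were called and 45.9% were called lower in OE-SAUR41, and the median of all genes was -0.58. Without Col-0 shoot replicate 1, RBOHF was at 0.05 and SGN3 at 0.24, none of the 9 genes was called, and 1.83% of all genes were.

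These 2 genes have the longest loci of the group, 7158 bases for RBOHF and 5401 bases for SGN3 as the files give them. The locus of SGN3 is shared with AT4G20150, so its span need not be that of SGN3 alone. Genes that do not share a locus were divided into eighths by span, and the median of replicate 1 minus replicate 2 was taken in each. In OE-SAUR41 shoots these medians lay between -0.02 and 0.00. In Col-0 shoots the median was -0.14 in the eighth with the shortest span and 1.41 in the eighth with the longest. RBOHF differed by -0.47 between the OE-SAUR41 shoot libraries and by 1.94 between the Col-0 shoot libraries. SGN3 differed by -0.28 between the OE-SAUR41 shoot libraries and by 1.16 between the Col-0 shoot libraries. Smaller trends with span were found between the root libraries, in opposite directions. The median was -0.0376 in the shortest eighth and 0.29 in the longest in OE-SAUR41 roots, and 0.19 in the shortest and -0.0990 in the longest in Col-0 roots. RBOHF differed by 0.53 between the OE-SAUR41 root libraries and by -0.21 between the Col-0 root libraries. The other 7 genes, with loci of 784 to 3016 bases, differed by -0.80 to 0.26 between the Col-0 shoot libraries. Among them the loci of CASP1, ESB1 and PER64 are also shared. The medians by span leave out all genes that share a locus. The part of gene span in the values of RBOHF and SGN3 was not tested.

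**Figure D4:**
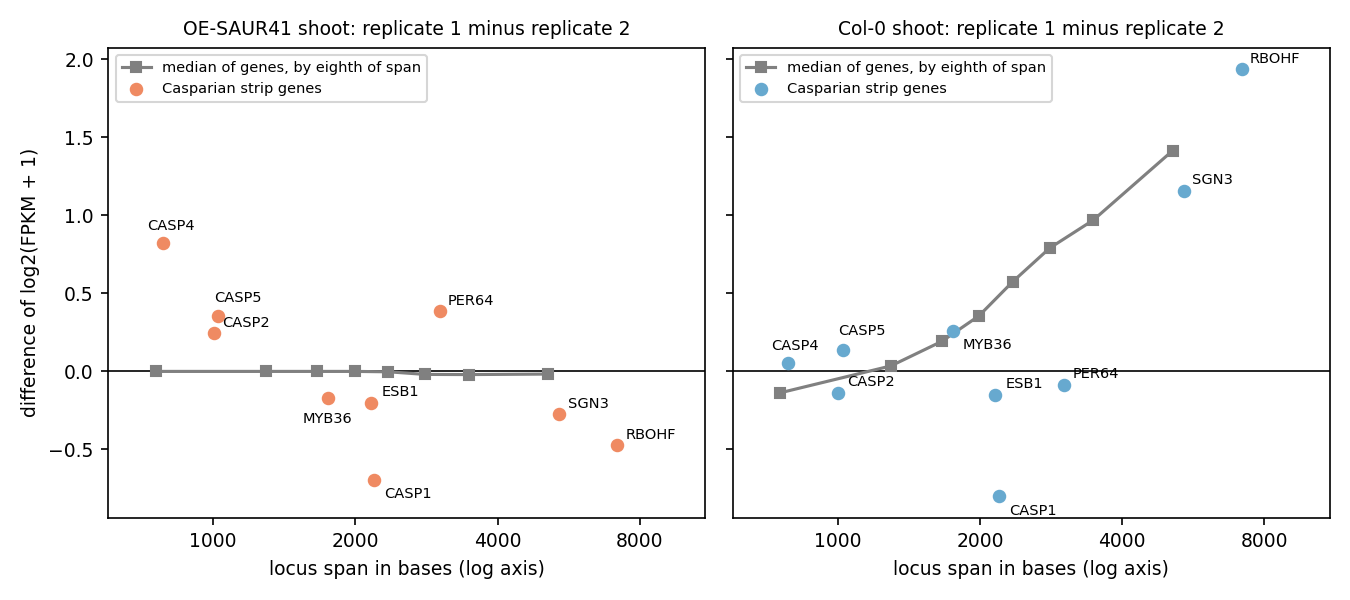
Difference between replicates 1 and 2 in log2(FPKM + 1), against the span of the locus in bases on a log axis, in OE-SAUR41 shoots (left) and Col-0 shoots (right). Grey squares are medians over genes in each eighth of span and coloured points are the Casparian strip genes. The loci of CASP1, ESB1, PER64 and SGN3 are shared with another gene, and the squares leave such genes out. In Col-0 shoots the squares climb from -0.14 to 1.41, and RBOHF at 1.94 and SGN3 at 1.16 lie near their upper end.

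The difference between the genotype effect in roots and in shoots was called for none of the 9 genes by limma, with adjusted p from 0.807 to 0.988 and no unadjusted p under 0.05. Over all genes tested, limma called 0.0%, and 948 had an unadjusted p under 0.05. The estimates for the 9 genes ran from -0.20 for CASP2 to 0.90 for RBOHF, whose 95% interval was -1.04 to 2.84. Without Col-0 shoot replicate 2 the difference was called for RBOHF (1.87, limma adjusted p = 0.0100) and SGN3 (1.03, limma adjusted p = 0.0386), where 34.8% of all genes were called.

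The genes listed as partners of SGN3 were also higher in roots. The list held AT2G16385, AT4G34600, AT1G61590, TPST, which sulfates peptide ligands, and GSO2, the closest relative of SGN3. All 5 were called higher in roots in OE-SAUR41 and in Col-0. Over all genes tested, 66.0% were called higher in roots in OE-SAUR41 and 52.7% in Col-0. Limma called none of the 5 between genotypes in either tissue, with 0 in roots and 1 in shoots at an unadjusted p under 0.05. AT4G34600 had 67.9 and 51.0 FPKM in OE-SAUR41 roots, against 89.1 and 84.9 FPKM in Col-0 roots. In shoots it had 2.45 and 1.50 FPKM in OE-SAUR41, against 0.649 and 0.547 FPKM in Col-0. Its log2 fold change was thus -0.56 in roots and 0.88 in shoots, with no overlap of the genotypes in either tissue, and neither was called (limma adjusted p = 1.0 and 0.269). Of all genes tested, 19.6% had both OE-SAUR41 root libraries below both Col-0 root libraries. In shoots 7.26% had both OE-SAUR41 libraries above both Col-0 libraries. AT2G16385 had 10.5 and 13.8 FPKM in OE-SAUR41 roots, against 11.6 and 10.6 FPKM in Col-0 roots, and at most 0.331 FPKM in shoots. GSO2 stood far below SGN3 in roots, at 1.55 and 1.48 FPKM in OE-SAUR41 and 1.62 and 1.14 FPKM in Col-0. TPST had 12.9 and 9.26 FPKM in OE-SAUR41 roots and 11.5 and 11.1 FPKM in Col-0 roots.

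The 13 further genes of strip placement and wall building, among them dirigent proteins, peroxidases, the laccase LAC3 and the uclacyanins UCC1 and UCC2, were all called higher in roots in both genotypes. The share called higher over all genes tested was 66.0% in OE-SAUR41 and 52.7% in Col-0. The median log2 fold change of the 13 genes was 4.07 in OE-SAUR41 and 4.45 in Col-0, beside 1.22 and 0.91 over all genes tested. Between genotypes limma called none in either tissue, with 0 genes in roots and 5 in shoots at an unadjusted p under 0.05. UCC2, a blue copper protein of the strip, was the most abundant of those named, with 334 and 388 FPKM in OE-SAUR41 roots and 426 and 387 FPKM in Col-0 roots. In shoots UCC2 had 12.4 and 12.9 FPKM in OE-SAUR41, against 8.75 and 6.66 FPKM in Col-0 (log2 fold change 0.66, limma adjusted p = 0.254). PER39 had 84.4 and 94.1 FPKM in OE-SAUR41 roots, against 80.4 and 64.7 FPKM in Col-0 roots, and UCC1 had 62.4 and 67.8 FPKM, against 61.3 and 47.8 FPKM. Neither was called (limma adjusted p = 1.0 each).

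Of 7 transcription factors of the endodermis, 6 were called higher in roots in both genotypes and IDD6 was called lower. The share called higher over all genes tested was 66.0% in OE-SAUR41 and 52.7% in Col-0, so this count says little by itself. SHR, which moves from the stele and specifies the endodermis, had 21.4 and 26.0 FPKM in OE-SAUR41 roots and 26.8 and 23.6 FPKM in Col-0 roots. In shoots SHR had 5.18 and 4.20 FPKM in OE-SAUR41 and 7.31 and 8.48 FPKM in Col-0. SCR, its partner in the endodermis, had 22.3 and 24.1 FPKM in OE-SAUR41 roots and 20.9 and 17.3 FPKM in Col-0 roots. In shoots SCR had 8.48 and 9.36 FPKM in OE-SAUR41 and 14.1 and 7.11 FPKM in Col-0, and its root to shoot log2 fold changes, 1.29 in OE-SAUR41 and 0.85 in Col-0, were below those of all 9 strip genes. Limma called none of the 7 between genotypes in either tissue, with 0 genes in roots and 2 in shoots at an unadjusted p under 0.05.

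The close relatives of MYB36 and RBOHF showed no called change with genotype either. Over all genes tested, 66.0% were called higher in roots in OE-SAUR41 and 52.7% in Col-0. All 4 tested MYB36 relatives were called higher in roots in both genotypes. MYB68 had 23.2 and 16.6 FPKM in OE-SAUR41 roots and 25.8 and 24.1 FPKM in Col-0 roots, and MYB38 had 21.3 and 13.0 FPKM in OE-SAUR41 roots and 20.6 and 24.9 FPKM in Col-0 roots. Of the 9 other RBOH genes, 6 were tested and 5 of them were called higher in roots in both genotypes. RBOHD, an oxidase known from immune and stress responses, was the exception and the most abundant, with 50.7 and 25.4 FPKM in OE-SAUR41 roots and 30.9 and 29.2 FPKM in Col-0 roots. In shoots RBOHD had 11.0 and 11.7 FPKM in OE-SAUR41 and 31.7 and 5.01 FPKM in Col-0, so its Col-0 shoot libraries were apart in the same direction as those of RBOHF. By limma, no MYB36 relative and no other RBOH gene had an unadjusted p under 0.05 between genotypes in either tissue.

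Genes of monolignol and suberin synthesis were mostly called higher in roots, as were 66.0% of all genes tested in OE-SAUR41 and 52.7% in Col-0. Of 15 genes of monolignol synthesis, which makes the lignin precursors, 12 were called higher and 1 lower in roots in each genotype. The lower one was CYP84A1, the ferulate 5-hydroxylase of syringyl lignin, with 14.4 and 13.7 FPKM in OE-SAUR41 roots and 8.86 and 8.16 FPKM in Col-0 roots, against 75.2 and 69.4 FPKM in OE-SAUR41 shoots and 81.6 and 68.5 FPKM in Col-0 shoots. Of 11 tested genes of suberin synthesis, the waxy layer laid down in older endodermis, 9 were called higher in roots in each genotype, and KCS20 was called lower in Col-0. With all 8 libraries, limma called no gene of either pathway between genotypes in either tissue. At an unadjusted p under 0.05 there were 1 monolignol and 0 suberin genes in roots and 2 monolignol and 3 suberin genes in shoots.

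The shoot results of these lists also rest on which Col-0 shoot library is used. Without Col-0 shoot replicate 2, where limma called 49.8% of all genes, 2 monolignol genes were called higher and 6 lower in OE-SAUR41 shoots, and 3 suberin genes were called higher and 3 lower. In the same fit 2 of the 13 genes of strip placement and wall building were called higher and 3 lower. Of the 5 partners of SGN3, 1 was called higher and 1 lower, and 2 endodermal transcription factors and 1 other RBOH gene were called lower. Without Col-0 shoot replicate 1, where 1.83% of all genes were called, limma called 1 monolignol gene, 3 suberin genes and 1 gene of strip placement and wall building, all higher, and no partner of SGN3, endodermal transcription factor or other RBOH gene.

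**Figure D5:**
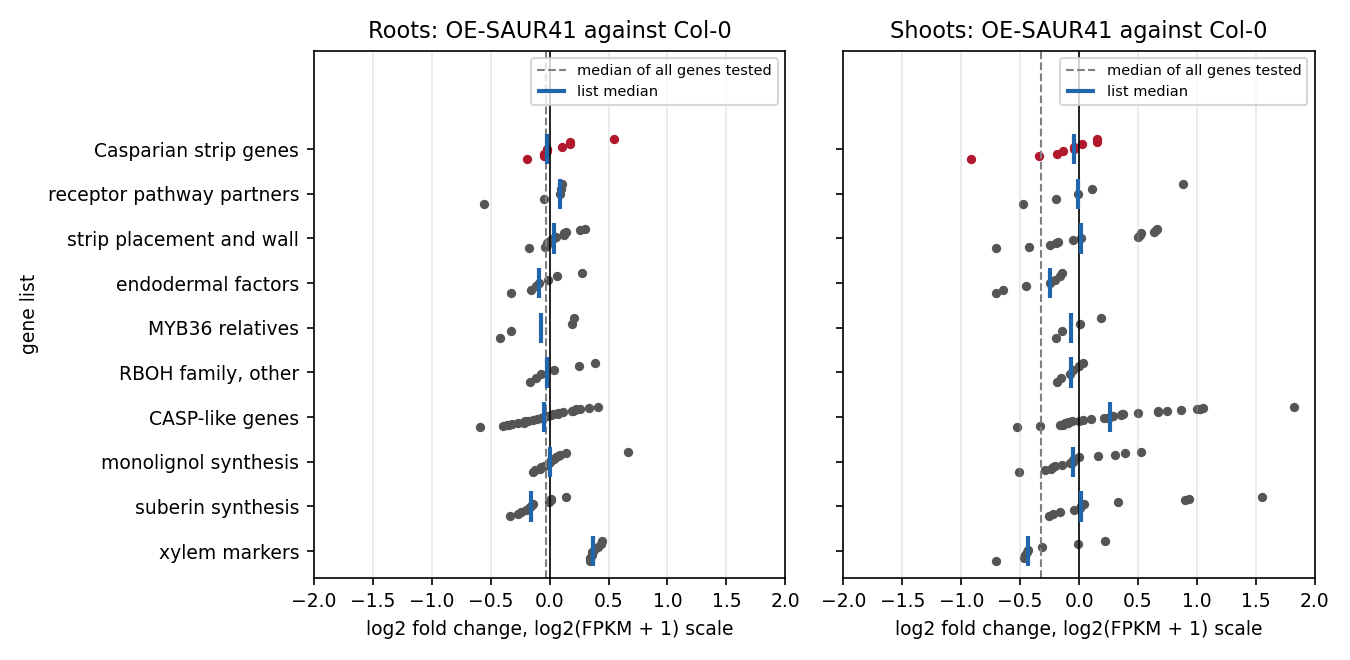
Log2 fold change of OE-SAUR41 against Col-0 on the log2(FPKM + 1) scale for the tested genes of 10 lists, in roots (left) and shoots (right). Each point is 1 gene, blue bars are list medians and dashed lines the median of all genes tested. In roots the strip genes have a median of -0.0193 and the xylem markers one of 0.37, and in shoots the CASP-like genes have a median of 0.26.

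The CASP-like genes, the wider family of membrane proteins related to the scaffold genes, differed among themselves in tissue. Of 34 such genes, 33 were listed and 29 tested. In OE-SAUR41, 15 were called higher and 6 lower in roots, and in Col-0, 18 were called higher and 5 lower. Of all genes tested, 66.0% were called higher in OE-SAUR41 and 52.7% in Col-0, so these counts show nothing particular to the family. CASPL1D1, the most abundant in Col-0 roots, lay above CASP1 in every root library. CASPL1D1 had 203 and 210 FPKM in OE-SAUR41 roots and 215 and 180 FPKM in Col-0 roots. The next 2 by mean level in Col-0 roots were CASPL1B1 and CASPL1B2. CASPL1B1 had 103 and 125 FPKM in OE-SAUR41 roots and 119 and 111 FPKM in Col-0 roots, and CASPL1B2 had 81.8 and 101 FPKM in OE-SAUR41 roots and 103 and 88.2 FPKM in Col-0 roots.

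In shoots the same 3 CASP-like genes stood higher in OE-SAUR41, with no overlap of the genotypes, and limma called none of the family. Both OE-SAUR41 shoot libraries lay above both Col-0 shoot libraries for 7.26% of all genes tested. CASPL1D1 had 15.4 and 16.9 FPKM in OE-SAUR41, against 8.36 and 6.85 FPKM in Col-0 (limma adjusted p = 0.121). CASPL1B1 had 11.3 and 12.1 FPKM in OE-SAUR41, against 3.22 and 7.91 FPKM in Col-0 (limma adjusted p = 0.282). CASPL1B2 had 8.76 and 6.03 FPKM in OE-SAUR41, against 1.23 and 1.46 FPKM in Col-0 (log2 fold change 1.82, limma adjusted p = 0.065). Over the 29 tested genes the median was 0.26, with 19 above 0, as were 21.2% of all genes tested. By limma 7 of the 29 had an unadjusted p under 0.05, as had 2790 of the 19863 genes tested. The family's median was 0.18 without Col-0 shoot replicate 1 and 0.37 without Col-0 shoot replicate 2. The 4 scaffold genes had log2 fold changes of -0.19 to 0.15 in the same comparison. Of these, CASP2, CASP4 and CASP5 had shoot means of at most 1.05 FPKM in either genotype, where the log2(FPKM + 1) scale understates changes. Whether the strip genes and the CASP-like genes differ in this respect was not tested.

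The genes most alike in pattern to the scaffold were taken as the 5 with the smallest Euclidean distance to the mean log2 profile of the 4 scaffold genes over the 8 libraries, among 16789 genes that are not members and share no locus. They were NIP5-1 at a distance of 0.631, ATL11 at 0.653, AT4G17215 at 0.679, AT3G52790 at 0.781 and LOG7 at 0.812. Single scaffold genes lay farther from their own mean because their levels differ, from 1.29 for CASP2 to 5.10 for CASP1. NIP5-1, a boric acid channel of root cells, had 40.0 and 28.0 FPKM in OE-SAUR41 roots and 35.6 and 38.2 FPKM in Col-0 roots, against 1.65 and 1.41 FPKM in OE-SAUR41 shoots and 1.31 and 1.28 FPKM in Col-0 shoots.

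Photosynthesis markers were higher in shoots and root cap and root hair markers in roots, whereas AT1G62500, which was entered as a cortex marker of the root, was called higher in shoots in both genotypes. The summed level of 6 photosynthesis genes was 81.8 to 124 FPKM in roots and 24472 to 46077 FPKM in shoots. The lowest of the shoot sums was that of Col-0 shoot replicate 1. The sum of 3 root cap genes was 14.3 to 16.0 FPKM in roots and 0.00 to 0.128 FPKM in shoots, where BRN1 and BRN2 were not listed in any library. The sum of 5 root epidermis and hair genes was 109 to 143 FPKM in roots and 3.46 to 4.53 FPKM in shoots. Most of the shoot sum was GL2, with 3.32 and 3.46 FPKM in OE-SAUR41 shoots and 3.61 and 3.43 FPKM in Col-0 shoots. GL2 was called higher in roots in OE-SAUR41 and not in Col-0, and the other 4 were called higher in both. The share called higher over all genes tested was 66.0% in OE-SAUR41 and 52.7% in Col-0. PRP3, a hair gene, reached 0.934 FPKM in OE-SAUR41 shoot replicate 1, and EXPA7 was listed in 1 shoot library, at 0.0757 FPKM. The part of root tissue in the shoot values of the strip genes was not tested.

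Xylem markers, listed as genes of another cell type of the root, were not called between genotypes. All 8 had a positive log2 fold change in roots, from 0.34 to 0.45, as did 42.1% of all genes tested, and limma called none, with 1 at an unadjusted p under 0.05. Their summed level was 315 and 275 FPKM in OE-SAUR41 roots, against 207 and 234 FPKM in Col-0 roots. In shoots 1 was positive and 7 negative, with a median of -0.44 beside -0.32 over all genes. That shoot median rests on which Col-0 shoot library is used. It was 0.02 without Col-0 shoot replicate 1 (all genes -0.03) and -0.77 without Col-0 shoot replicate 2 (all genes -0.58). The effect in roots minus that in shoots was positive for all 8 and for 73.3% of all genes, with a median of 0.79 and 2 at an unadjusted p under 0.05. This median was 0.36 without Col-0 shoot replicate 1 (all genes -0.0001) and 1.14 without Col-0 shoot replicate 2 (all genes 0.54). The summed level of the 9 strip genes overlapped between the genotypes in the same libraries, and the part of xylem content in the values of single strip genes was not tested.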

How the data were processed

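Gene expression was measured by Illumina sequencing of total RNA, per the labels' protocols. The authors deposited FPKM values in 1 file per library, per the file headers. The submitters' processing notes name TAIR10 as the genome build. For the aligner, the quantifier and the strand setting, the sources used here give no information. Gene starts in the files were taken to count from 0 and are printed counting from 1. Of 25124 genes compared with a gene table, 6360 had a file start 1 less than the table start. An equal start was found for 130, and the rest matched neither. The files hold no 0, so an unlisted gene was taken as 0. AT2G01010, AT3G41768 and AT1G29930 were left out as failed estimates. The values do not resolve into whole reads, so depth is unknown and no counting interval is given.

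Tests were run on log2(FPKM + 1) for genes that reached 1 FPKM in 2 or more of the 8 libraries, a scale that understates the change of low genes. All libraries entered 1 limma fit of 4 group means (limma 3.58.1, R 4.3.3, eBayes with trend, 4 residual and 3.53 prior degrees of freedom). The threshold for a call was 0.05 on the Benjamini-Hochberg adjusted p over all genes tested. With 2 libraries against 2, an exact permutation p is at least 0.333, so this test was not used. On data simulated for OE-SAUR41 root against Col-0 root (19863 genes, 200 changed), the fit called 26% of genes with a log2 change of 1, with 1 false call, and 100% of genes with a log2 change of 2, with 10 false calls. The simulation gave all genes the same spread and changed only genes with a mean log2(FPKM + 1) above 2 in Col-0 roots. In the data the spread differs among genes (SE 0.189 for ESB1 and 0.589 for RBOHF), so these rates need not hold for single genes.

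The members and lists were chosen with earlier results of these data known. The rule gives 10 strip genes, of which 1 is not reported here, and every count, sum, median and profile of strip or scaffold genes is over those reported. From each list it names genes out of the 4 with the largest absolute change in roots and out of the direct partners of SGN3, plus the 3 CASP-like genes highest in Col-0 roots. IDD6, KCS20, GL2 and PRP3 were named after their values were seen. CASP-like genes were found by symbol and synonym in a gene table of assembly TAIR10.1. The replicate numbers were not treated as pairs in the main fit. The correlation of replicate differences between groups ran from -0.22 to 0.46, which cannot settle whether the numbers pair the samples. Alternatives were a pseudocount of 0.1 or 5, testing every gene listed, a filter at 5 FPKM, quantile normalization, eBayes without trend, a fit on the libraries of 1 contrast, a replicate block, and each library left out in turn. A lone library of a group was then assumed to vary like the other groups. Python 3.11.15 was used with numpy 2.4.6, pandas 2.3.3 and matplotlib 3.10.9.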

Additional observations from a re-analysis of the deposited data

How the results depend on the processing

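The tissue results of the 9 strip genes kept their direction under all alternatives run, 144 values in OE-SAUR41 and 153 in Col-0. For all but CASP1, CASP4, ESB1 and PER64 the filter rested on root values, so this direction is no independent result. Leaving out 1 library at a time, RBOHF ranged from 1.64 to 3.57 in Col-0. The sizes of the tissue results moved with the scaling, and under quantile normalization CASP4 was at 1.53 and SGN3 at 1.77 in OE-SAUR41. Between genotypes no strip gene was called in roots under the 16 alternatives, where 10 of 144 values changed sign. In shoots 15 of 139 values changed sign, and the count of called genes was 0 to 2 when a library was left out, both in shoots and for the difference between tissues. The 2 calls came without Col-0 shoot replicate 2. With the shoot libraries alone, 4 of the 9 genes passed the filter. Quantile normalization moved the shoot median of all genes to -0.01 and turned MYB36 to 0.0256 and RBOHF to 0.0233 in roots, and CASP4 to 0.21, ESB1 to 0.37, MYB36 to 0.21 and SGN3 to 0.0718 in shoots. Leaving out 1 library at a time, log2 fold changes in roots ranged from -0.12 to 0.024 for CASP1, from -0.19 to 0.092 for CASP2, from -0.44 to 0.0466 for CASP4, from -0.27 to 0.23 for MYB36, from -0.034 to 0.25 for SGN3 and from -0.29 to 0.25 for RBOHF. In shoots they ranged from -0.25 to 0.55 for CASP1, from -0.55 to 0.27 for CASP4, from -0.15 to 0.0533 for ESB1, from -0.18 to 0.0855 for MYB36, from -0.17 to 0.22 for PER64, from -0.92 to 0.24 for SGN3 and from -1.89 to 0.049 for RBOHF. The cause was not tested. With the replicate number as a block, 0 strip genes were called in either genotype comparison and 9 in each tissue comparison. A crossed replicate block, chosen after seeing that replicate differences of Col-0 roots and Col-0 shoots had r = -0.218, called 9 strip genes and 10471 of all genes. Over all genes, the count called in shoots was 4, and 1 to 9864 over the alternatives. The difference between tissues called 0 to 6888 genes. The comparison of roots called 1 gene, and 1 to 9 over the alternatives. Low shoot values limit these results, since the pseudocount sets much of a fold change there.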

Other observations

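Some suberin and CASP-like genes stood higher in OE-SAUR41 shoots whichever Col-0 shoot library was left out. These genes were picked after their values were seen, and none was called by limma with all 8 libraries. CYP86A1, a fatty acid hydroxylase of suberin synthesis, had 5.67 and 7.42 FPKM in OE-SAUR41 shoots, against 1.46 and 1.65 FPKM in Col-0 shoots, with a log2 fold change of 1.56 (limma adjusted p = 0.0725). Its log2 fold change was 1.50 without Col-0 shoot replicate 1 and 1.61 without Col-0 shoot replicate 2 (limma adjusted p = 0.0169 and 7.84e-04). In roots CYP86A1 had 88.2 and 107 FPKM in OE-SAUR41 and 102 and 91.8 FPKM in Col-0, and the genotypes overlapped.

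The transporter ABCG6 of the suberin list had 2.36 and 2.25 FPKM in OE-SAUR41 shoots, against 0.854 and 0.622 FPKM in Col-0 shoots. Its log2 fold change was 1.03 without Col-0 shoot replicate 1 and 0.84 without Col-0 shoot replicate 2. In the same order, CASPL1B2 was at 1.75 and 1.90, CASPL1D1 at 1.12 and 0.87, and CASPL4D1 at 0.94 and 1.11. CASPL4D1 had 6.20 and 6.21 FPKM in OE-SAUR41 shoots, against 2.34 and 2.76 FPKM in Col-0 shoots. UCC2, of strip placement and wall building, was at 0.83 and 0.49. Not all genes of these lists stood higher in both fits. FAR1 of suberin synthesis was at 1.19 and -0.53, and CASPL5B2 at -0.50 and -0.54. Among the strip genes, CASP2 was at 0.08 and 0.22 and RBOHF at 0.05 and -1.89. How many of all genes stood higher in both fits was not counted. Both fits share the OE-SAUR41 shoot libraries, and in them 1.83% and 49.8% of all genes were called.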
